A study of Arabidopsis thaliana with 8 samples.

Results

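The YUCCA (YUC) genes of Arabidopsis thaliana code for flavin-containing monooxygenases of auxin synthesis. The set described here is YUC1 to YUC10, 10 genes chosen by name. Its peaks are those of the 3 deposited GBF2 peak lists whose assigned gene identifier is one of the 10. They number 4 of the 1589 peaks in the lists, and they fall on 2 of the 780 genes that had a peak in any list. GBF2 is a bZIP transcription factor that binds the G-box. Its binding was mapped by chromatin immunoprecipitation and sequencing (ChIP-seq) in whole seedlings. The compared groups were seedlings 5 days old kept for 6 h in 0.5 µg/mL tunicamycin, which blocks N-glycosylation and stresses the endoplasmic reticulum (ER), and seedlings of the same age kept for 6 h in its solvent DMSO. All seedlings, DMSO-treated ones included, carried the transgene pGBF2:GBF2-Ypet in the Col-0 background, so GBF2 fused to the fluorescent protein Ypet was made under the GBF2 promoter. Each treatment had 2 libraries immunoprecipitated with an antibody against GFP and 2 input libraries, 8 in all, and the labels name no seedlings without the transgene.

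YUC enzymes convert indole-3-pyruvate into the auxin indole-3-acetic acid (IAA), and the aminotransferase TAA1 and its relatives make indole-3-pyruvate from tryptophan. Different members of the family act in embryos, flowers, shoots and roots. YUC8 is known as a target of the bHLH factors PIF4 and PIF7 when warmth or shade makes the hypocotyl elongate, and YUC8 and YUC9 belong to the branch of the family that also holds YUC3, YUC5 and YUC7. GH3 enzymes remove free IAA by joining it to amino acids.

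The lists hold 767 peaks for tunicamycin, 320 for DMSO, and 502 in a further list by the authors of tunicamycin-specific peaks. Of these 502, 29 overlap a DMSO peak, so a place in that list does not by itself mean no DMSO overlap. Each peak has a position, a class relative to a gene, 1 assigned gene and a score, which is the authors' value. Scores ran from 1.89 to 7.49 in the tunicamycin list and from 1.71 to 8.75 in the DMSO list. There are no values per library, so neither the depth nor the replicate spread is known, and no test between treatments was possible. Scores and ranks are read within a list only, since the lists differ in length.

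YUC8 (AT4G28720) and YUC9 (AT1G04180) each had 1 peak in the tunicamycin list and 1 in the DMSO list. The other 8 genes had a peak in no list: YUC1 (AT4G32540), YUC2 (AT4G13260), YUC3 (AT1G04610), YUC4 (AT5G11320), YUC5 (AT5G43890), YUC6 (AT5G25620), YUC7 (AT2G33230) and YUC10 (AT1G48910). The tunicamycin-specific list held 0 peaks at the 10 genes. The tunicamycin list thus held 2 of 10 YUC genes (20%, 95% Wilson interval 5.67 to 51%), where 2.27% of all 27444 protein-coding nuclear genes did. The same 2 of 10 had a peak in the DMSO list, where 0.849% of protein-coding genes did. In both lists at once, 0.762% of protein-coding genes had a peak, as YUC8 and YUC9 did. In the tunicamycin-specific list 1.52% of protein-coding genes had one, and 0 of 10 is near that share. The interval covers counting error only, and since the genes were chosen with earlier results of these data known, the shares are given as a description.

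At YUC9 the tunicamycin peak spanned chromosome 1, 1103014 to 1103752 (TAIR10 coordinates throughout), a length of 739 bp, with a score of 2.77. The DMSO peak at YUC9 spanned 1102993 to 1103754, or 762 bp, with a score of 2.97. The authors' class of both was the promoter within 1 kb, and the tunicamycin peak lay wholly inside the DMSO peak. Its start was 21 bp inside that peak and its end 2 bp inside. The midpoints were 9.5 bp apart.

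At YUC8 the tunicamycin peak spanned chromosome 4, 14191739 to 14192506, a length of 768 bp, with a score of 2.22. The DMSO peak spanned 14191729 to 14192518, or 790 bp, with a score of 2.54. The class of this pair was also the promoter within 1 kb, and here too the tunicamycin peak lay inside the DMSO peak, by 10 bp at its start and 12 bp at its end. The midpoints were 1.0 bp apart. The peaks at both genes thus covered nearly the same bases in both lists.

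**Figure D1:**
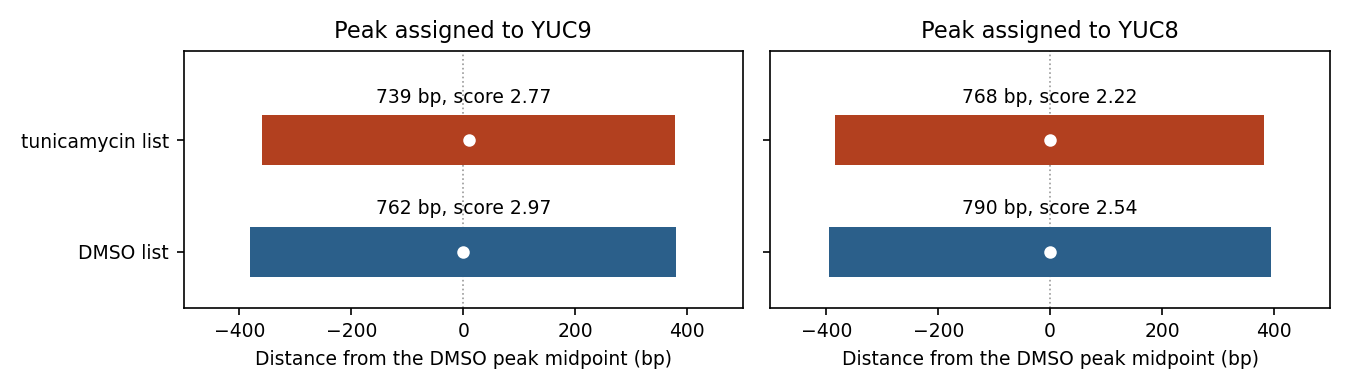
Extent of the peaks assigned to YUC9 (left panel) and YUC8 (right panel), in bp from the midpoint of the DMSO peak, with the tunicamycin list above the DMSO list. White points are peak midpoints, which lie 9.5 bp apart at YUC9 and 1.0 bp apart at YUC8.

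Overlaps this close were not the rule among peaks found in both lists. The lists held 278 overlapping pairs of peaks, with a median midpoint distance of 43.2 bp (quartiles 16.1 and 107.1 bp). The midpoints were closer than those of the YUC8 pair in 4 of the 278 pairs and closer than those of the YUC9 pair in 42. The shared length, as a percentage of the span that both peaks cover together, was 97.2% for YUC8 and 97% for YUC9, and its median over all pairs was 87.7%. A larger share was reached by 26 pairs for YUC8 and by 29 for YUC9. The tunicamycin peak lay inside the DMSO peak in 71 pairs (25.5%), including both YUC pairs. The gene was the same in 97.1% of all pairs, and gene and class were the same in 91.4%.

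**Figure D2:**
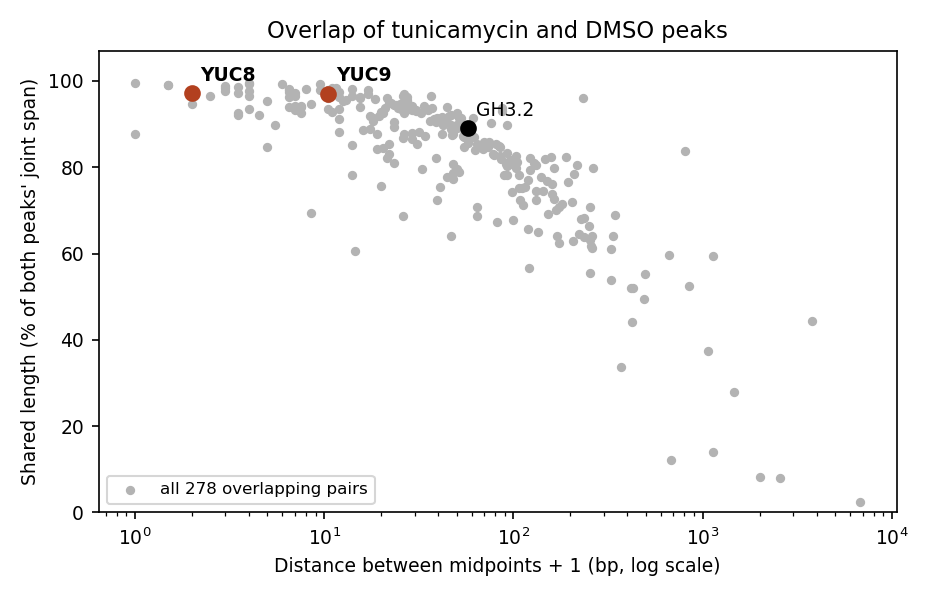
Shared length of each of the 278 overlapping pairs of tunicamycin and DMSO peaks, as a percentage of their joint span, against the distance between their midpoints plus 1 bp on a log axis. YUC8 and YUC9, at 97.2% and 97%, lie at the upper left, and GH3.2, at 89%, lies near the median of 87.7%.

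The score placed the YUC genes apart from each other in both lists. YUC9 ranked 186 of 767 in the tunicamycin list, above 75.7% of its peaks (95% Wilson interval 72.6 to 78.6%). Among DMSO peaks it ranked 157 of 320, above 50.9% of the peaks (45.5 to 56.4%), next to the list's median score of 2.96. YUC8 ranked 616 of 767 in the tunicamycin list, above 19.7% of the peaks (17 to 22.6%). Among DMSO peaks YUC8 ranked 277 of 320, above 13.4% of the peaks (10.1 to 17.6%). YUC9 therefore stood above the median of each list and YUC8 in the weaker part of each. The ranks themselves are exact within each list. Their intervals treat the peaks of a list as independent draws, and hold neither error of the score nor replicate spread.

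The peaks next to them in score were of mixed kinds. In the tunicamycin list YUC9, at 2.772, stood between AT5G45210 (2.773) and the DnaJ-protein gene AT2G17880 (2.77). In that list YUC8, at 2.218, followed HB-12, a homeobox gene, at the same rounded score of 2.218, and AT1G63410 (2.214) came after it. In the DMSO list YUC9, at 2.973, stood between AT5G03370 (2.98) and BRI1 (2.969), which codes for the brassinosteroid receptor. YUC8, at 2.539, followed AT1G68440, which had the same rounded score, and the auxin-conjugating gene GH3.5 (2.525) came after it.

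**Figure D3:**
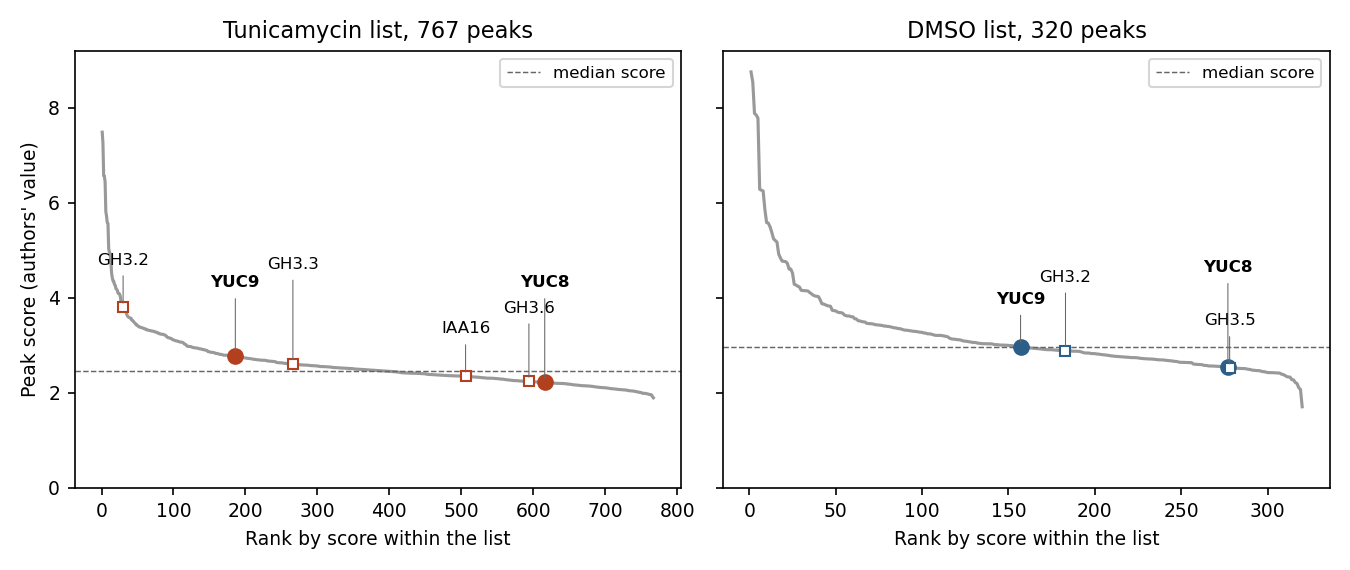
Peak score against rank within the tunicamycin list (left) and the DMSO list (right), with YUC genes as filled circles and other auxin genes as open squares; the dashed line is the list's median score. YUC9 lies above the median of each list (2.77 against 2.47 for tunicamycin, 2.97 against 2.96 for DMSO), and YUC8 lies below it, at 2.22 and 2.54.

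Peaks as weak as that of YUC8 were mostly not shared in the tunicamycin list. Among the 50 tunicamycin peaks nearest to it in rank, 4 overlapped a DMSO peak (8%, 95% Wilson interval 3.15 to 18.8%), and neither HB-12 nor AT1G63410, its neighbours in score, did. Around YUC9 in the tunicamycin list, 27 of the 50 nearest in rank overlapped a DMSO peak (54%, 40.4 to 67%). Of the 50 DMSO peaks nearest in rank to YUC8, 36 overlapped a tunicamycin peak (72%), and 43 of the 50 nearest to YUC9 did (86%). Over the whole lists, 36.1% of tunicamycin peaks and 85% of DMSO peaks overlapped a peak of the other list. In the tunicamycin list as a whole most peaks were thus not shared, though most were in the YUC9 window. The YUC8 window was below that list's share and the YUC9 window above it. In the DMSO list the YUC9 window was near the list's share and the YUC8 window below it. The intervals cover counting error only. Windows of 50 peaks were chosen after the ranks of both genes were known.

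The YUC peaks were narrow. In the tunicamycin list, where the median length was 878 bp, 11.6% of the peaks were narrower than that of YUC9 and 19.3% narrower than that of YUC8. Among DMSO peaks, where it was 884 bp, 20.9% were narrower than that of YUC9 and 25.6% narrower than that of YUC8. Among peaks of nearly the same length (a ratio of lengths of at least 0.9), YUC9 scored above 229 of 250 tunicamycin peaks, whose median was 2.35, and above 71 of 92 DMSO peaks, whose median was 2.73. YUC8 scored above 76 of 297 tunicamycin peaks of like length, whose median was 2.36, and above 16 of 109 DMSO peaks, whose median was 2.8. The counts include the YUC peaks themselves.

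The distance to other peaks was measured next. The gap from the YUC8 peak to the nearest other peak was 53.2 kb in the tunicamycin list, where the median over all peaks was 33.5 kb, and 275 of the 767 tunicamycin peaks had a larger one. The nearest peak belonged to ckl4, a gene for a casein kinase I-like protein. This gap was 516 kb in the DMSO list, to the peak of BBX28, a B-box gene, against a median of 83 kb, and 23 of the 320 DMSO peaks had a larger one. To the other side of YUC8 the next DMSO peak, at AT4G33980, was 2092 kb away. For YUC9 the gap was 73.8 kb in the tunicamycin list, to AT1G04000, with a larger one at 210 of the 767 peaks. In the DMSO list it was 109 kb, to ABCI19, with a larger one at 137 of the 320 peaks. On its other side AT1G04500 had the next peak in both lists, 120 kb away in each.

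Of the 20 genes next to the 10 YUC genes, 1 on either side in the order of gene starts in the RefSeq table of TAIR10.1, 0 had a peak in any list, where 2.27% of all protein-coding genes had one in the tunicamycin list and 0.849% in the DMSO list. The next genes were taken from genes of any type, so these shares match them only in part, and 0 of 20 is near them. XIH and GrxC5 flank YUC8, and EIF2 GAMMA and TPR3 flank YUC9.

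For the 8 YUC genes without a peak, the nearest gene with one was counted in gene positions along the chromosome. In the tunicamycin list it was 7 positions from YUC6, 12 from YUC4, 13 from YUC3, 18 from YUC7, 20 from YUC5, 22 from YUC2, 28 from YUC1 and 63 from YUC10, and the median over all protein-coding genes was 19. So YUC3, YUC4, YUC6 and YUC7 lay nearer than the median to a tunicamycin peak, and YUC1, YUC2, YUC5 and YUC10 farther. In the DMSO list the distances were 13 positions for YUC3, 18 for YUC7, 19 for YUC4, 63 for YUC10, 154 for YUC6, 177 for YUC1, 237 for YUC5 and 279 for YUC2, with a median of 50 over all protein-coding genes. YUC3, YUC4 and YUC7 were thus the ones nearer than the median in the DMSO list. The nearest gene was AT1G04500 for YUC3, AT2G33350 for YUC7 and AGO1, an Argonaute gene of small RNA action, for YUC10, each in both lists.

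The rest of the auxin pathway was examined with 108 further genes, listed by role. The tunicamycin list held peaks at 4 of them (3.7%, against 2.27% of all protein-coding genes) and the DMSO list at 2 (1.85%, against 0.849%). The tunicamycin-specific list held 3 of them (2.78%, against 1.52% of all protein-coding genes), and 1 had a peak in both treatments (0.926%, against 0.762%). At the synthesis steps around the YUC enzymes, YUC11 had no peak, nor did any of the 5 TAA1/TAR aminotransferase genes or the 13 genes of tryptophan supply and other routes to auxin. The 14 auxin transport genes had 0 peaks. The same held for the 6 receptor genes (TIR1 and AFB1 to AFB5), 15 auxin response factor genes and 6 PIF genes, PIF4 and PIF7 included. For lists this short, 0 is near the 2.27% and 0.849% of all protein-coding genes with a peak. These counts therefore set none of these roles apart.

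Peaks at other auxin genes fell mostly on the GH3 genes. The tunicamycin list held 3 of the 8 listed GH3 genes, namely GH3.2, GH3.3 and GH3.6 (37.5%, against 2.27% of all protein-coding genes). The DMSO list held 2 of the 8, GH3.2 and GH3.5 (25%, against 0.849%). Each of these enzymes joins IAA to amino acids. The GH3 genes were singled out from their role list after the peaks were known. The other 11 genes of auxin conjugation, hydrolysis and oxidation had none, which for so few genes is near these shares of all protein-coding genes.

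GH3.2 (AT4G37390) was the GH3 gene with a peak in both lists. Its tunicamycin peak, at chromosome 4, 17578999 to 17579992, scored 3.8 and ranked 30 of 767. Its DMSO peak, at 17579077 to 17580027, scored 2.89 and ranked 183 of 320. The tunicamycin peak of GH3.2 thus stood above those of YUC9 and YUC8 in its list, while its DMSO peak stood between those of YUC9 and YUC8. The pair at GH3.2 shared 916 bp, with midpoints 56.5 bp apart.

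The remaining GH3 peaks were found under a single treatment. GH3.3 (AT2G23170) had a tunicamycin peak of score 2.61 at chromosome 2, 9866298 to 9867017, ranked 266. GH3.6 (AT5G54510) had one of score 2.24 at chromosome 5, 22134472 to 22135290, ranked 594, close to YUC8. Both were in the authors' tunicamycin-specific list, and the nearest DMSO peaks were 252 kb and 15.6 kb away. GH3.5 (AT4G27260) had a DMSO peak of score 2.52 at chromosome 4, 13652156 to 13652860, ranked 278 of 320, and the nearest tunicamycin peak was 12.4 kb away at AT4G27290. Among the 29 Aux/IAA repressor genes, 1 had a peak, IAA16 (AT3G04730), a share of 3.45% that is near the 2.27% of all protein-coding genes in the tunicamycin list. This peak, on chromosome 3 from 1290330 to 1291553, scored 2.35 and stood in the tunicamycin list and the specific list. The class of each of these GH3 and IAA16 peaks was the promoter within 1 kb. A site called under 1 treatment and not the other was not tested for a difference, and its level in the other list is unknown.

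**Figure D4:**
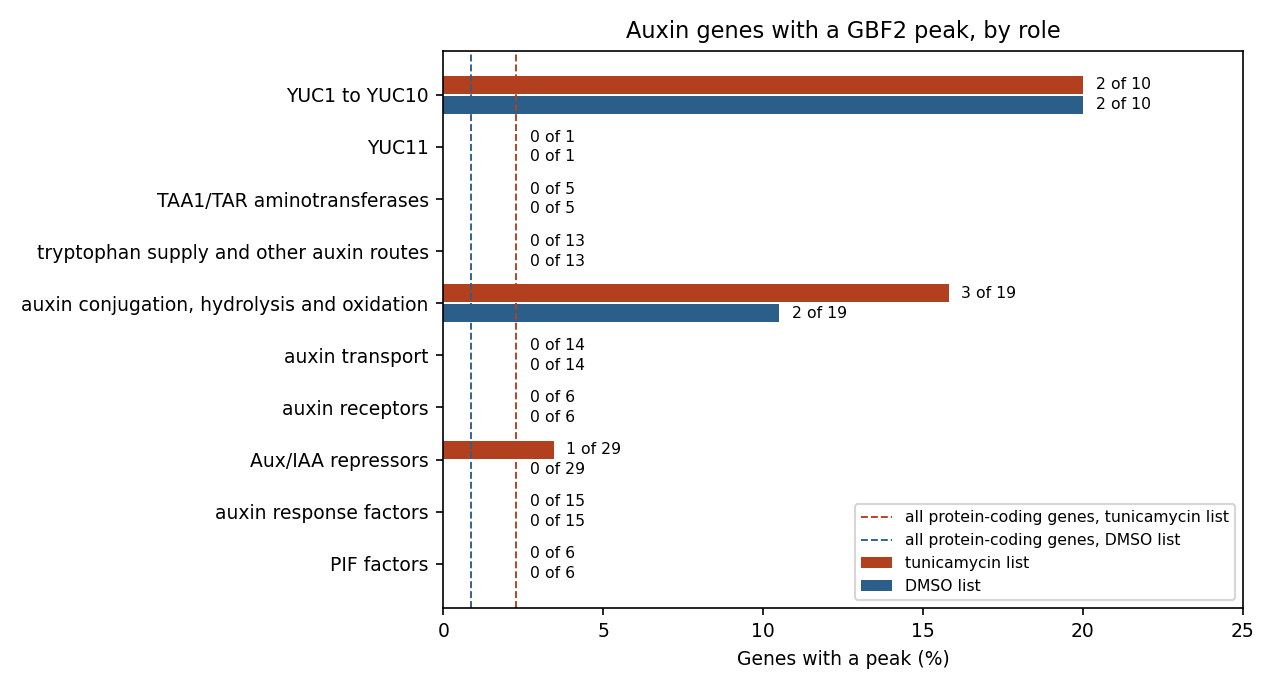
Percentage of the genes of each auxin role with a peak in the tunicamycin list (upper bar) and the DMSO list (lower bar), with the number of genes beside each bar; dashed lines mark all protein-coding genes, at 2.27% and 0.849%. Bars above 0 are seen for YUC1 to YUC10 (20% in both lists), for conjugation, hydrolysis and oxidation (15.8% and 10.5%, all GH3 genes) and, in the tunicamycin list, for Aux/IAA repressors (3.45%).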

How the data were processed

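GBF2 ChIP-seq peaks were taken as the authors deposited them. The submitters' processing notes list the build TAIR10 and the tools MACS2 2.1.2, SAMtools 1.8, Bowtie 1.1.2, cutadapt 1.8.1 and FastQC 0.11.5. For settings, peak threshold, use of the input and whether replicates were pooled, nothing is stated there (not given in the sources used here). Per the file headers the deposited score is a signalValue, and what it is relative to is not stated. The deposited peak length in bp equals end minus start plus 1 in every row. Position class and gene per peak are the authors'; a gene can lie beside a peak given to its neighbour.

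Peaks were matched to genes by identifier, and called overlapping from 1 bp. All 118 genes of the 10 lists were found in the RefSeq table of TAIR10.1, used for names and gene order only. Its 27444 protein-coding nuclear genes gave the background. Members and lists were chosen with earlier results of these data known. The genes named are the YUC genes, listed auxin genes with a peak, and genes next to a YUC peak in score or position; genes nearest to YUC genes without a peak were added after their values were seen. No test was run, because the lists hold no value per library. The labels call the 2 libraries of a group biological replicates. The overlap step and the percentage of lower-scoring peaks were tested on simulated data, and the rank numbers were not. Work was done in Python 3.11.15 with matplotlib 3.10.9, SciPy 1.17.1, numpy 2.4.6 and pandas 2.3.3. Alternatives covered the strongest 50% of each list, the promoter class, next genes, overlap rules and peaks of up to 3000 bp. The planned motif counts were not run.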

Additional observations from a re-analysis of the deposited data

How the results depend on the processing

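With the strongest 50% of each list by score, 1 YUC gene was left for tunicamycin and 1 for DMSO, YUC9 in both cases, since YUC8 fell in the weaker part of each list (background 1.17% and 0.419% of protein-coding genes). In the DMSO list YUC9 was only just inside this cut, at rank 157 of 320 and a score of 2.97 against a median of 2.96. Under the same rule the further auxin genes with a peak came to 2 for tunicamycin (GH3.2 and GH3.3), 0 for DMSO and 1 among tunicamycin-specific peaks (GH3.3), fewer because fewer peaks enter. These were 5 of the 25 alternative values computed for 11 results. The other 20 stayed near the reported ones: promoter peaks of up to 1 kb alone, next genes counted as well (for YUC genes), overlap of at least 50% of the shorter peak, midpoints within 200 bp, and ranks among promoter peaks or among peaks of 3000 bp or shorter. They also include the 0 YUC genes among the strongest 50% of tunicamycin-specific peaks. Of these 20, only the ranks could have moved. All YUC and listed auxin peaks already had the promoter class, and no next gene had a peak. Both YUC pairs shared 100% of the shorter peak, with midpoints 1.0 and 9.5 bp apart, and the 0 could not fall. Counting next genes left 2 YUC genes in each list, while the share of protein-coding genes became 6.06% for tunicamycin (against 2.27%) and 2.24% for DMSO (against 0.849%). No paired analysis was possible because the lists hold no value per library. Depth per library is unknown, so a YUC gene without a peak is not shown to lack GBF2, and the longer tunicamycin list can come from more reads.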
